A study of Mus musculus with 9 samples.

Results

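Mitochondrial respiration rests on 5 protein complexes of the inner membrane, and most of their subunits are encoded in the nucleus. The genes described here were those nuclear-encoded subunits, taken from the deposited table by gene symbol: Nduf genes of complex I (NADH dehydrogenase), Sdh genes of complex II (succinate dehydrogenase), Uqcr genes of complex III (the cytochrome bc1 complex), Cox4 to Cox8 genes of complex IV (cytochrome c oxidase) and Atp5 genes of complex V (ATP synthase). Symbols ending in -ps, which mark pseudogenes, were dropped (5 rows). The rule left 96 of the 45535 rows that carry a symbol, 39 for complex I, 4 for complex II, 10 for complex III, 20 for complex IV and 23 for complex V. Among the 96 were 8 numbered pseudogene copies such as Cox7c-ps1, which the rule keeps and which were held out of the summed levels. Ndufa4 and Ndufa4l2 were not analysed here, and subunits with other symbols (Cyc1, Ndufab1) fall outside the rule and are given with the neighbouring pathways.

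The study measured RNA of CD103+ dendritic cells from the lungs of C57/BL6j mice by sequencing. All mice had received bleomycin, a drug that injures the lung, for 7 days, so both groups carry that exposure and no sample is without it. Lungs were digested with collagenase and the cells taken with magnetic beads. The 5 samples before culture were harvested directly, and the 4 samples after culture had spent 18 h ex vivo in RPMI medium with serum and antibiotics. The comparison answers what changed in these cells over 18 h outside the lung, with no added treatment named in the labels. Nothing in the labels tells if a sample is 1 mouse or a pool, so p-values measure only the spread between these samples, which may be technical. The extraction note speaks of total lung RNA, while the cell type label gives CD103+ dendritic cells.

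Electrons from NADH enter at complex I and those from succinate at complex II. Both hand them through coenzyme Q to complex III and through cytochrome c to complex IV, which reduces oxygen. Complexes I, III and IV pump protons, and complex V uses the gradient to make ATP. Complex II is also an enzyme of the tricarboxylic acid cycle, pumps no protons and has no mitochondrially encoded subunit. In dendritic cells, activation is known for a shift from oxidative phosphorylation towards glycolysis, and the subunit genes are known as targets of the factors NRF1, GABPA (an ETS factor) and YY1.

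Promoter sequence was shown for 4 genes, because many members moved together and the 3 factors' motifs are known from such promoters. Cox6a1 and Atp5me fell in culture and hold an NRF1 and an ETS match. Sdhb did not pass the test and holds an ETS match, and Ndufv2 rose and holds no match to the 3 motifs. With a correction for GC content and length the Atp5me and Ndufv2 calls were lost and Sdhb was called higher. Ndufb11, Ndufa6, Atp5f1d and Cox6b2 fell and hold no match either, so the 4 printed windows do not represent all members that fell. Each window runs 5′ to 3′ from 250 bases before to 30 bases after the RefSeq start (GRCm38.p6), with matches in capitals. They lie at chr5:115348929-115349208 (minus strand), chr5:108434370-108434649 (minus strand), chr4:140961021-140961300 (plus strand) and chr17:66101530-66101809 (minus strand).
Cox6a1: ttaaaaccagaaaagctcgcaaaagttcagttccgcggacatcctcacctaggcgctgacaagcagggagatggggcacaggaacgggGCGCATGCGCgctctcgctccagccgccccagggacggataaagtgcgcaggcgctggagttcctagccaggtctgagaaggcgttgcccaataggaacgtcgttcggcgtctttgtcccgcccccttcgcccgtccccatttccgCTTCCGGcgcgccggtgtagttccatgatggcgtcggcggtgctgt
Atp5me: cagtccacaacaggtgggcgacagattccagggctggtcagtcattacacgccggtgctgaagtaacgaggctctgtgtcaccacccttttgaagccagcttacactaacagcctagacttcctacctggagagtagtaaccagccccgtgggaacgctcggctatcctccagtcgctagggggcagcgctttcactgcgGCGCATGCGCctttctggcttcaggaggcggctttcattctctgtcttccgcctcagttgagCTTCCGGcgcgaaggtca
Sdhb: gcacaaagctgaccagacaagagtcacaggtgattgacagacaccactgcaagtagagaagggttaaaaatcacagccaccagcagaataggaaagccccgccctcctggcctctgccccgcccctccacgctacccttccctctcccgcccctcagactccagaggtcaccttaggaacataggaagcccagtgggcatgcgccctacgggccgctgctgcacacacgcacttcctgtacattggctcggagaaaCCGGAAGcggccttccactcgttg
Ndufv2: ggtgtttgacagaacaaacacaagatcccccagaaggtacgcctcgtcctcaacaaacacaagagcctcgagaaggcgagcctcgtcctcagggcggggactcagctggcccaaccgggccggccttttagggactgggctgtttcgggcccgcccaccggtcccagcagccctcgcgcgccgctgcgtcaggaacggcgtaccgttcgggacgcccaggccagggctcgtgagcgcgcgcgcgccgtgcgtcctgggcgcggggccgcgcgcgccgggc

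The motifs searched on both strands were GCGCATGCG (NRF1), CCGGAAG (ETS) and AAGATGGC (YY1); none of them holds another, and NRF1 matches on the opposite strands may overlap. RefSeq promoter windows of 300 bases (250 before and 50 after the start) matched 66 members, 64 of them tested for a change in culture. The NRF1 letters were in 8 of the 64 (12.5%), against 1.95% of all 27025 genes with a window. ETS letters were in 16 members (25%), against 9.93% of all genes, and YY1 letters in 10 members (15.6%), against 3.19%. All 8 genes with the NRF1 letters (Ndufa8, Ndufa11, Uqcrc1, Uqcr11, Cox6a1, Atp5mc2, Atp5me and Atp5mg) were among the 39 genes that fell, and 0 were among the other 25. With the correction for GC content and length described below 3 of the 8 stayed lower (Uqcr11, Cox6a1 and Atp5mg), 4 lost the call and Uqcrc1 was called higher, while 24 of the 64 genes were lower and 9 higher. The values of Atp5mg and Atp5mc2 are uncertain, since 84.9% and 87.4% of the 50-base stretches of their transcripts are shared with other genes. YY1 letters were in 3 of the 39 genes that fell and in 7 of the other 25, and ETS letters in 10 and 6; with the correction 2 genes with YY1 letters were lower and 2 higher, and 6 and 3 with ETS letters. A match is a description of letters and shows no binding.

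Libraries held 14.7 to 35.3 M reads in named rows, 14.7 to 28.8 M before and 26.0 to 35.3 M after culture, and 1 read was worth 0.758 to 1.79 normalized counts. The members took 0.339 to 0.431% of named reads before and 0.289 to 0.346% after culture. The label was checked against 11 markers of CD103+ (type 1 conventional) dendritic cells, all of which were detected; 8 fell and 3 rose in culture. Itgae, which encodes CD103, was at 18138 ± 1537 before (SD, n = 5) and 1727 ± 335 after culture (SD, n = 4). Markers of other lung cells were detected, most of them lower after culture. Summed markers of alveolar epithelium were at 24969 to 41080.5 before and 4758 to 8615 after (8 of 9 fell), those of endothelium at 24904 to 36200.4 and 3338 to 4422 (8 of 8 fell), those of fibroblasts at 17313 to 30936.5 and 2371 to 4682 (8 of 8 fell), those of neutrophils at 14298 to 25015 and 932 to 1902 (7 of 7 tested fell) and those of alveolar macrophages at 23474 to 33092 and 12469 to 17353 (5 of 7 tested fell). T cell markers summed to 6766 to 7971 and 6069.8 to 8034 (2 of 8 fell, 1 rose). No marker of these lists was at 0 in all samples, and the part of these cells in the changes below was not tested. In such bulk samples, fewer cells of a type and less RNA per cell cannot be told apart.

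The fourth sample before culture stood apart in these genes. Their summed normalized count was 81748 there and 108606 to 115246 in the other 4 samples before culture. It was the lowest of its group for 70 of the 81 tested members (86.4%), against 30.4% of all tested genes. The same sample had the highest alveolar epithelial marker sum (41080.5) and 6.43% of reads in rows without a symbol, against 9.08 to 10.9% in the rest of its group. After culture the third sample was lowest for 68 of 81 members (84%), against 33.7% of all tested genes. Both samples carry the same number in their library names. Their deviations from the group means over all tested genes correlated at 0.349, the highest of any pair between the groups. The labels do not say if they share a source. Results that rest on the fourth sample are given with and without it.

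Of the 96 members, 81 reached a mean of 10 normalized counts and were tested with limma on log2(normalized count + 1), with Benjamini-Hochberg adjustment over all 18202 tested genes and a threshold of 0.05. After 18 h of culture 48 members were lower (59.3%; 34.6% of all tested genes were called lower), 5 were higher (6.17%; background 34.2%) and 28 did not pass. The median log2 fold change of the 81 was -0.42, beside 0.01 for all tested genes. The fall was mostly modest: 12 members (14.8%) were at least 2-fold lower, against 18.6% of all tested genes. Values of the groups did not overlap for 17 lower members (21.0%; background 28.6%) and 3 higher ones (background 28.7%). Without the fourth sample before culture the groups did not overlap for 49 lower members (60.5%; background 32.5%) and 3 higher ones (3.7%; background 31.4%), and limma called 53 lower (background 35.1%) and 3 higher (background 34.6%). With the third cultured sample left out as well, chosen after seeing the data, limma called 51 lower and 7 higher. Of all 18202 tested genes 6360 were then lower and 6256 higher. Whichever of the 9 samples was left out, 39 of the 48 lower calls and 3 of the 5 higher calls held; the 11 others are Atp5f1b, Atp5if1, Atp5mc1, Cox5a, Cox6b1, Ndufa12, Ndufa8, Ndufb2, Uqcrc1, Ndufv2 and Sdhc.

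A correction for transcript GC content and length, fitted over all genes, moved the median of all genes to 0.13. With it 33 members were lower (background 28.3%) and 13 higher (background 39.6%), and the members' median was -0.26. The correction also removed the mean deviation of each sample, so changed calls mix that shift with GC content and length. These parts were not separated. Atp5if1, Atp5mj and Atp5mk had no matched transcript, and their values were left as they were. Of the 48 lower calls, 33 held under it, among them Atp5if1 and Atp5mk, which it could not change. The 14 calls that were lost were those of Ndufs8, Ndufa7, Ndufa8, Ndufa11, Ndufa12, Ndufb7, Ndufs6, Ndufv3, Cox5a, Cox6b1, Atp5f1b, Atp5mc1, Atp5mc2 and Atp5me. Uqcrc1, called lower without the correction, was called higher with it. Of the 5 higher calls, those of Ndufv2 and Uqcrc2 were lost. Under the correction 9 members that had not passed were called higher, namely Ndufs3, Ndufs7, Ndufv1, Ndufa10, Ndufb4, Ndufb9, Sdhb (0.52), Cox7a2 (0.35) and Atp5pf. The sign of the value turned for the called members Ndufv2, Ndufb7 and Uqcrc1, and, among the members named below that did not pass, for Ndufs7, Ndufv1, Ndufa10, Ndufb3, Ndufb8, Uqcrb, Cox7a1, Atp5f1c, Atp5pb, Atp5pf and Atp5po.

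**Figure D1:**
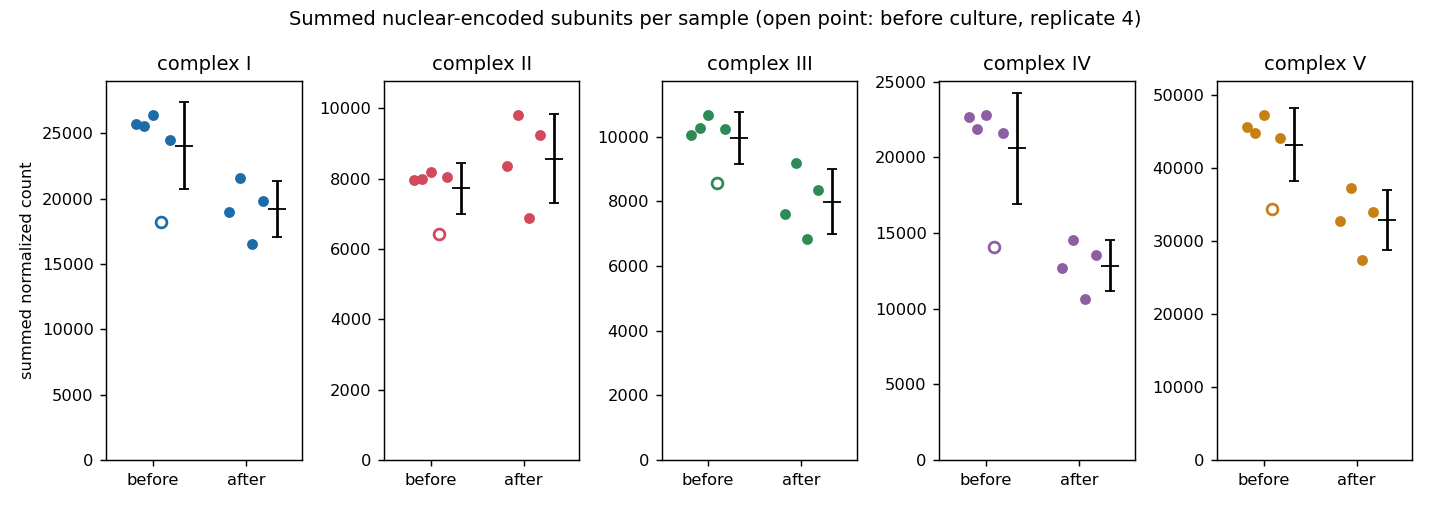
Summed normalized counts of nuclear-encoded subunits per sample for complexes I to V (vertical axes start at 0), before culture (5 samples) and after culture (4 samples), with bars for the mean ± SD. Complex IV stood at a mean of 20602 before and 12842 after culture, complex II stood at 7725 before and 8570.0 after culture, and the open point marks the fourth sample before culture, the lowest of its group in every panel.

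Summed over its subunits, complex IV had 20602 ± 3667 before culture (SD, n = 5) and 12842 ± 1667 after culture (SD, n = 4), so the level after culture was 62.3% of that before. The complex IV sums were 22639, 21887, 22757, 14100.0 and 21628 before culture and 12652, 14561, 10632 and 13522 after culture. Every sample but the fourth lay at 21628.5 or above before culture, and the fourth, at 14100.0, lay within the range after culture. Complex V stood at 76.0% of its level before culture, with 43259.5 ± 5059 before culture (SD, n = 5) and 32883 ± 4113 after culture (SD, n = 4). Complexes I and III stood at 79.9% and 80.2%, with sums of 24068 ± 3349.7 before culture (SD, n = 5) and 19226 ± 2122 after culture (SD, n = 4) for complex I and 9961 ± 803 before culture (SD, n = 5) and 7989 ± 1009 after culture (SD, n = 4) for complex III. Complex II went the other way, at 111%, with 7725 ± 734 before culture (SD, n = 5) and 8570.0 ± 1274 after culture (SD, n = 4), and its groups overlapped. Over all 88 members other than the numbered pseudogene copies the sum after culture was 77.2% of that before.

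In complex I, 17 of 35 tested subunits fell, 2 rose and 16 did not pass, with a median log2 fold change of -0.27. Without the fourth sample before culture 21 fell and 1 rose, and with the GC and length correction 9 were lower and 7 higher (median -0.18). Counts are given by arm of the complex. Of the 7 core subunits of the matrix arm, which carry the flavin and the iron-sulfur clusters, 1 fell and 2 rose (median -0.11); with the correction the direction turned, with 0 lower, 4 higher and a median of 0.29. Of the 9 accessory subunits of the matrix arm 7 fell and 0 rose (median -0.57), and of the 19 accessory subunits of the membrane arm 9 fell and 0 rose (median -0.27). With the correction these accessory counts were 3 lower and 0 higher (median -0.27) in the matrix arm and 6 lower and 3 higher (median -0.16) in the membrane arm. The difference between these roles was not tested.

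Among the core subunits Ndufs1, the largest, which holds iron-sulfur clusters of the matrix arm, was read at 1150.2, 1142, 1188, 1307 and 1246 before and 1608, 1776, 1689 and 1854 after culture. All 4 samples after culture lay above all 5 before, and Ndufs1 rose (log2 fold change 0.52 ± 0.07 SE, adjusted p = 2.74e-05 by limma); it lies at chr1:63143596-63176833 on the minus strand of GRCm38. Ndufv2, a flavoprotein-fraction subunit with an iron-sulfur cluster, was at 559.9, 568, 610.3, 478 and 566 before and 695, 668, 604 and 642 after culture. The groups overlapped only between the third sample before and the third after culture, and Ndufv2 rose (log2 fold change 0.23 ± 0.09 SE, adjusted p = 0.0332 by limma); the call was lost without the first or the fourth sample before culture or the first, the second or the fourth after it (adjusted p 0.0543 to 0.0964), and the GC and length correction gave -0.14 and no call.

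Ndufs8, which carries iron-sulfur clusters next to the quinone site, was at 814, 787, 767, 471 and 736 before and 545, 556, 433 and 486 after culture. Only the fourth sample before culture overlapped with the cultured samples, and Ndufs8 fell (log2 fold change -0.48 ± 0.15 SE, adjusted p = 0.0111 by limma), a call lost under the GC and length correction (-0.15).

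For 3 further core subunits the groups overlapped. Ndufs7, which holds the last iron-sulfur cluster before coenzyme Q, was at 866, 887, 966, 804 and 909 before and 803, 1017, 678 and 809 after culture (log2 fold change -0.11 ± 0.11 SE, adjusted p = 0.361 by limma). With the GC and length correction Ndufs7 was called higher (0.47, adjusted p = 0.00132 by limma). Ndufv1, which binds NADH, was at 829, 881, 927, 673 and 927 before and 819, 845, 607 and 753 after culture (log2 fold change -0.17 ± 0.12 SE, adjusted p = 0.228 by limma; -0.25 with an adjusted p of 0.0479 without the fourth sample before culture). It too was called higher with the correction (0.31, adjusted p = 0.0133 by limma). Ndufs3 showed a log2 fold change of 0.00 ± 0.09 SE, adjusted p = 0.976 by limma (called higher with the correction, at 0.29), and 39.7% of its transcript's 50-base windows are shared with another gene.

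The accessory subunits held the largest falls of the complex. Ndufb11, a membrane-arm subunit, was at 1041, 1048, 1060.2, 798 and 1069 before and 337, 499, 339 and 426 after culture. Every cultured sample was below every sample before culture, and Ndufb11 was 2.51-fold lower (log2 fold change -1.33 ± 0.13 SE, adjusted p = 8.34e-07 by limma); the gene lies at chrX:20615326-20617619 on the minus strand. Ndufa6, a matrix-arm subunit of the LYR motif family, was at 816, 754, 794, 371 and 718 before and 280.0, 300.2, 226 and 292 after culture. The groups did not overlap although the fourth sample before culture was lowest by far, and Ndufa6 was 2.52-fold lower (log2 fold change -1.28 ± 0.20 SE, adjusted p = 7.22e-05 by limma); it lies at chr15:82350140-82354322 on the minus strand.

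Among the other accessory subunits that fell were Ndufa2 (-1.15), Ndufa13 (-1.003), which is also known as GRIM-19, and Ndufb10 (-1.002). Ndufa3, Ndufa1, Ndufa5, Ndufa11, Ndufv3, Ndufs6, Ndufa7, Ndufa8, Ndufa12, Ndufb7 and Ndufb2 fell with log2 fold changes between -0.77 and -0.35. With the GC and length correction Ndufa3, Ndufa1, Ndufa5 and Ndufb2 stayed lower and the other 7 lost the call, Ndufb7 at 0.14 and the rest between -0.27 and -0.15 (limma adjusted p 0.0966 to 0.419). Accessory subunits that did not pass the test ran from -0.27 for Ndufb8 to 0.26 for Ndufb6, with Ndufs5, Ndufb5, Ndufa9, Ndufc2, Ndufa10, Ndufc1, Ndufs4, Ndufb3, Ndufb9 and Ndufb4 between them. With the correction Ndufa10 (0.22), Ndufb4 (0.39) and Ndufb9 (0.48) were called higher, and Ndufb8 (0.07) and Ndufb3 (-0.15) turned sign without a call. Of the windows of Ndufb4 and Ndufb9, 37.0% and 23.4% are shared with other genes. Without the fourth sample before culture Ndufb8 and Ndufs5 were called lower (limma adjusted p = 0.00181 and 0.00238), and without the third Ndufb6 was called higher (0.0418). The lower calls of Ndufa12, Ndufa8 and Ndufb2 were lost without 7, 4 and 6 of the 9 samples in turn (limma adjusted p up to 0.151).

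**Figure D2:**
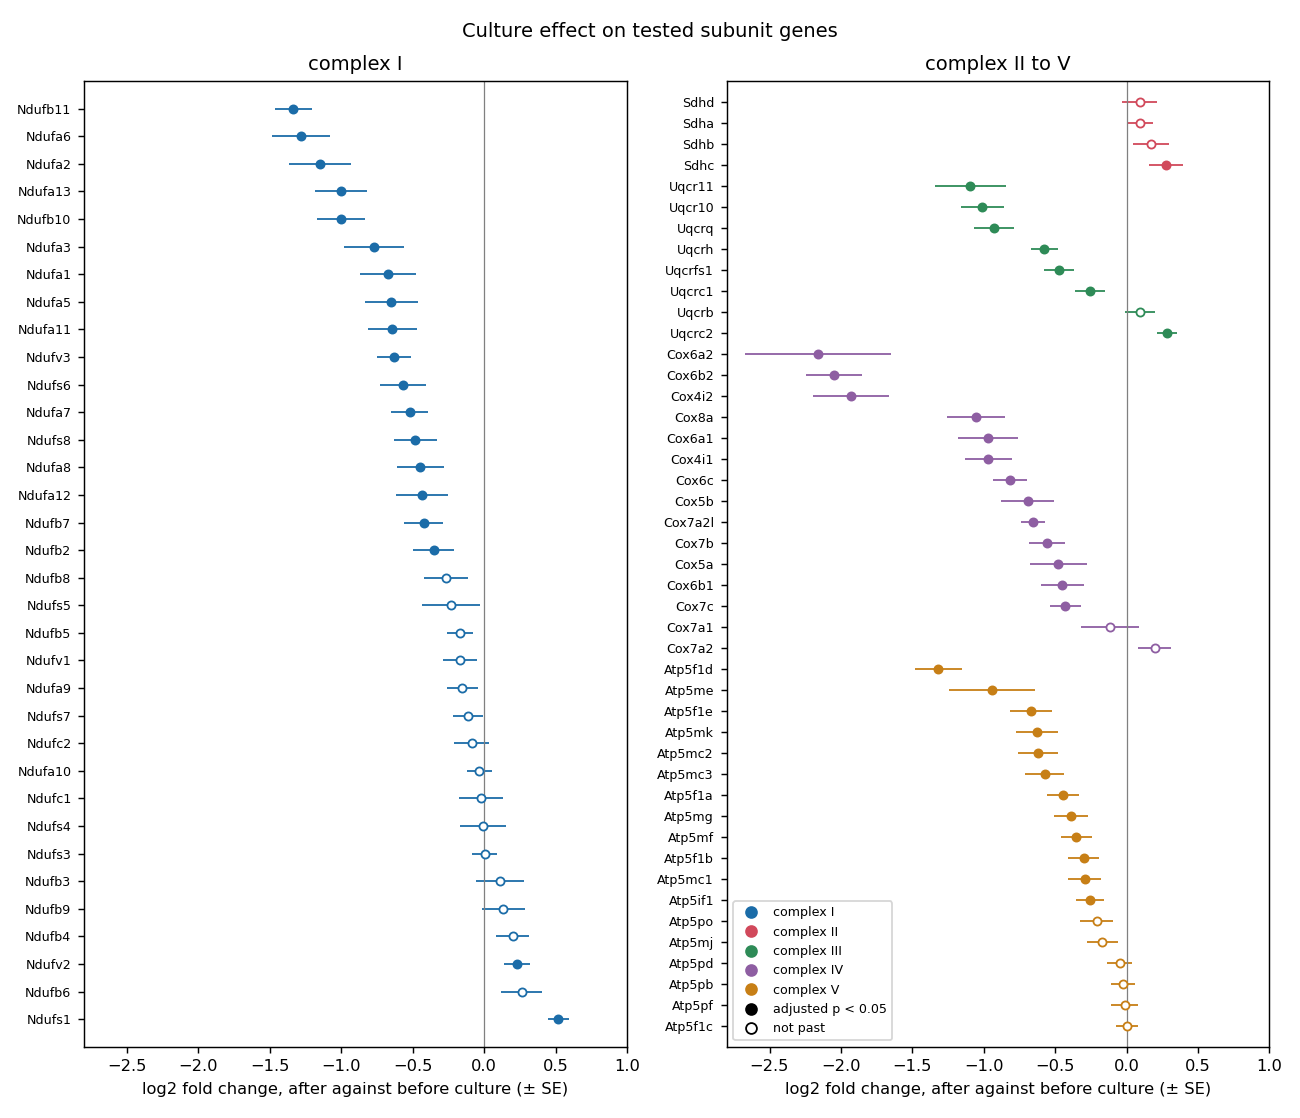
Log2 fold change (after against before culture, ± SE) of the tested subunit genes that are reported by name, other than the pseudogene copy, complex I in the left panel and complexes II to V in the right; filled points passed the limma threshold. Most points lie left of 0, while the 4 complex II genes lie between 0.09 and 0.28 and the filled points at the right are Ndufs1 (0.52), Uqcrc2, Sdhc and Ndufv2.

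Complex II, the 4-subunit succinate dehydrogenase, had 0 genes that fell and 1 that rose of 4 tested, with a median of 0.13; without the fourth sample before culture 0 rose, and with the GC and length correction 2 were higher. Sdha, the flavin-bearing catalytic subunit, was at 3248, 3344, 3286, 2631 and 3288 before and 3369.8, 3707, 2894 and 3523 after culture. Sdhb, which carries the iron-sulfur clusters, was at 1653, 1560.4, 1659, 1279.8 and 1659 before and 1699, 2079.6, 1327 and 2001 after culture. Neither passed the test (log2 fold changes 0.09 ± 0.09 and 0.17 ± 0.13 SE, limma adjusted p = 0.381 and 0.246), with the third cultured sample the lowest of its group for both. Without that sample Sdhb was called higher (log2 fold change 0.30, limma adjusted p = 0.0185).

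The membrane anchors Sdhc and Sdhd bind coenzyme Q. Sdhc was at 1298, 1382, 1395, 1198 and 1477 before and 1638, 1935, 1237 and 1805 after culture, with 3 of 4 cultured samples above all samples before, and rose (log2 fold change 0.28 ± 0.12 SE, adjusted p = 0.0491 by limma). Sdhd was at 1757, 1715, 1862, 1313 and 1618 before and 1647, 2077, 1422 and 1919 after culture, and its log2 fold change was 0.09 ± 0.12 SE, adjusted p = 0.523 by limma. The call for Sdhc lay at the threshold and was lost when any 1 of 7 samples was left out (limma adjusted p 0.0637 to 0.154), all but the fifth before and the third after culture.

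Complex III split between its core proteins. Of 8 tested subunits 6 fell, 1 rose and 1 did not pass (median -0.53), and with the GC and length correction 5 were lower and 1 higher. Uqcrc2, a core protein, was at 1499, 1596, 1575, 1643 and 1529 before and 1823, 2052, 1785 and 1986 after culture, with all cultured samples above all others, and rose (log2 fold change 0.28 ± 0.07 SE, adjusted p = 0.00248 by limma); the GC and length correction gave 0.07 and no call, and 24.8% of its windows are shared with Pdzd9. Its partner Uqcrc1 was at 2341, 2422, 2484, 2153 and 2520.3 before and 2020.1, 2407, 1563 and 2082 after culture. The groups overlapped and Uqcrc1 was called lower at the threshold (log2 fold change -0.25 ± 0.11 SE, adjusted p = 0.0471 by limma), and was called higher after the correction (0.27, adjusted p = 0.0243 by limma). The lower call was lost without any 1 of 7 samples, all but the fourth before and the second after culture (adjusted p 0.0635 to 0.155).

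Uqcrfs1, the Rieske iron-sulfur protein that passes electrons towards cytochrome c, was at 1544, 1511, 1657, 1441 and 1699 before and 1024, 1314, 942 and 1278 after culture. All cultured samples were below the others, the fourth sample before culture included (log2 fold change -0.47 ± 0.10 SE, adjusted p = 0.0011 by limma). Among the 5 small subunits 4 fell, Uqcr11 (-1.09), Uqcr10 (-1.01), Uqcrq (-0.93) and the hinge protein gene Uqcrh (-0.58), and their groups did not overlap except for Uqcr11, where the fourth sample before culture fell within the cultured range. Uqcrb, at 0.09 (-0.34 after the correction), did not pass, and 43.4% of its windows are shared with another gene.

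Complex IV had the largest share of falling subunits: 13 of 15 tested fell, 0 rose and 2 did not pass (median -0.69), and the counts were the same without the fourth sample before culture (median -0.89). With the GC and length correction 11 were lower and 1 higher. Of the 10 subunits found in most tissues 9 fell (median -0.63). Cox4i1, the common form of the regulatory subunit IV, was at 2426, 2189, 2265, 1266 and 2041 before and 1039.7, 1158, 829.8 and 1064 after culture. All cultured samples were below all samples before culture, and Cox4i1 was 1.99-fold lower (log2 fold change -0.97 ± 0.16 SE, adjusted p = 0.000148 by limma).

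Cox5a and Cox5b encode the subunits Va and Vb. Cox5a was at 1650.1, 1585, 1691, 763 and 1430.2 before and 1009, 1118, 809 and 1023 after culture (log2 fold change -0.48 ± 0.20 SE, adjusted p = 0.046 by limma; -0.69 with an adjusted p of 4.51e-05 without the fourth sample before culture). Cox5b was at 1863, 1756, 2010.5, 942 and 1765 before and 1005, 1171, 804 and 1045 after culture (log2 fold change -0.69 ± 0.19 SE, adjusted p = 0.00502 by limma). For both genes the groups would separate but for the fourth sample before culture, and 32.1% and 25.9% of their windows are shared with other genes. The Cox5a call was lost without any 1 of 7 samples (limma adjusted p 0.0735 to 0.120), all but that sample and the second cultured one.

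Cox8a, a small membrane subunit and the member with the highest level per kilobase before culture, was at 3729, 3508, 3809, 1782 and 3693 before and 1567, 1782, 1172 and 1683 after culture. The lowest value before (1782.0, the fourth sample) and the highest after culture (1781.7, the second sample) touched, and Cox8a was 2.13-fold lower (log2 fold change -1.06 ± 0.20 SE, adjusted p = 0.000408 by limma). Cox6a1, which faces the intermembrane side, was at 1403, 1438, 1511, 644 and 1294 before and 669, 709, 509.5 and 588 after culture (log2 fold change -0.97 ± 0.21 SE, adjusted p = 0.00107 by limma), with only the fourth sample before culture inside the cultured range. Its promoter is the first of those printed above, with the NRF1 and ETS letters.

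Cox6b1, on the intermembrane side, was at 2741, 2592, 2772, 1626 and 2672 before and 1784, 2050.1, 1429 and 1936 after culture and fell (log2 fold change -0.45 ± 0.15 SE, adjusted p = 0.0184 by limma), again with only the fourth sample before culture overlapping; without the third cultured sample the adjusted p was 0.0599. Cox6c (-0.82), Cox7b (-0.56) and Cox7c (-0.43) fell as well; 53.0% of the windows of Cox7c are shared with other genes. Cox7a2 was the exception among common subunits, at 825, 899.6, 974, 901 and 976 before and 969.9, 1319, 826 and 1132 after culture (log2 fold change 0.20 ± 0.12 SE, adjusted p = 0.157 by limma; 0.31 and 0.0174 without the third cultured sample).

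Cox7a2l encodes a relative of Cox7a2 known for joining complexes III and IV into supercomplexes, and whether it does so in these mice was not measured. It was at 3463, 3292, 3191, 2843 and 3231 before and 1787, 2173, 1944 and 2262 after culture, with no overlap, and fell (log2 fold change -0.65 ± 0.09 SE, adjusted p = 1.38e-05 by limma). Per sample, Cox7a2l stood at 352 ± 42.3% of the Cox7a2 count before culture (SD, n = 5; 316 to 420.0%) and at 196 ± 29.9% afterwards (SD, n = 4; 165 to 235%). This ratio was lower in every cultured sample (exact two-sided permutation p = 0.0159, the smallest that 5 against 4 samples can give; 0.0476 adjusted over the 9 ratios compared). A ratio of 2 genes shows an unequal change and not which gene moved.

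Several complex IV subunits have second genes known from muscle, lung or testis, here at low levels: of the 7, 4 were tested, 3 fell and 1 did not pass. Cox4i2, the form known from lung and from oxygen-sensing cells, was at 82.8, 59.4, 51.6, 129.7 and 69.8 before and 22.1, 15.2, 18.2 and 20.5 after culture. It was 4.14-fold lower with no overlap (log2 fold change -1.93 ± 0.27 SE, adjusted p = 2.29e-05 by limma), and the fourth sample before culture was the highest here, opposite to its place among the common subunits. Relative to Cox4i1 it stood at 4.41 ± 3.30% before culture (SD, n = 5; 2.28 to 10.2%) and at 1.89 ± 0.40% afterwards (SD, n = 4; 1.31 to 2.19%; exact permutation p = 0.0159, adjusted 0.0476). The difference in log2 ratio was -0.96, and -0.60 without the fourth sample before culture.

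Cox6b2, best known from testis, was at 147, 169.5, 157, 93.7 and 136 before and 27.4, 33.4, 33.7 and 36.5 after culture, 4.30-fold lower with no overlap (log2 fold change -2.05 ± 0.19 SE, adjusted p = 6.33e-07 by limma). Relative to Cox6b1 it stood at 5.68 ± 0.55% before (SD, n = 5) and 1.85 ± 0.37% after culture (SD, n = 4; exact permutation p = 0.0159, adjusted 0.0476). The fourth sample before culture did not stand apart in this ratio, which ran from 5.09 to 6.54% before and from 1.53 to 2.36% after culture.

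Cox6a2, the heart and skeletal muscle form of subunit VIa, was at 17.1, 33.4, 5.61, 14.2 and 26.9 before and 1.77, 6.82, 1.82 and 3.04 after culture and fell (log2 fold change -2.16 ± 0.51 SE, adjusted p = 0.00192 by limma), with an overlap at the third sample before culture. Its ratio to Cox6a1, 1.64 ± 0.83% before (SD, n = 5) and 0.53 ± 0.31% after (SD, n = 4), did not pass (exact permutation p = 0.0952, adjusted 0.122). Cox7a1, the muscle form of subunit VIIa, was at 41.9, 40.8, 34.8, 42.7 and 44.8 before and 39.7, 44.0, 40.9 and 28.1 after culture (log2 fold change -0.11 ± 0.20 SE, adjusted p = 0.639 by limma; 0.19 and no call after the correction), and its ratio to Cox7a2 gave an exact permutation p of 0.190 (adjusted 0.190). Cox8b was at 11.4, 0, 4.49, 8.37 and 16.1 before and 8.83, 6.82, 8.19 and 6.08 after culture, below the minimum for a test, with an exact permutation p of 0.0952 (adjusted 0.122) for its ratio to Cox8a.

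Of smooth muscle and pericyte markers, whose cells are known to express some of these isoforms, 6 of 11 tested fell, 0 rose and 5 did not pass. Their sum was 1516 to 2915 before and 1064 to 1553 after culture. In the fourth sample before culture, where Cox4i2 was highest, the sum was 1532. With the GC and length correction 5 were lower and 1 higher. Desmin (Des) was at 219 ± 97.2 before (SD, n = 5) and 40.1 ± 12.1 after culture (SD, n = 4). Among those that did not pass, Acta2 (0.37), Cnn1 (0.38) and Notch3 (0.46, corrected 1.30 and called higher) had log2 fold changes above 0. Kcnj8 (-0.20) and Tagln (-0.36) were below 0. Of striated muscle markers, 3 of 7 tested fell and 3 rose, with sums of 432 to 549 before and 922 to 1313 after culture, while myoglobin (Mb) was near 0 before and at 0 in all cultured samples. Of 2 tested brown adipocyte markers 1 fell and 1 rose, with sums of 214 to 283 before and 686 to 818 after culture. Plasmacytoid dendritic cell markers, a list added after seeing the data, had 3 of 8 tested lower and 2 higher, with sums of 7559.7 to 8274 before and 6019 to 6757 after culture. The part of these cells in the isoform changes was not tested.

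**Figure D3:**
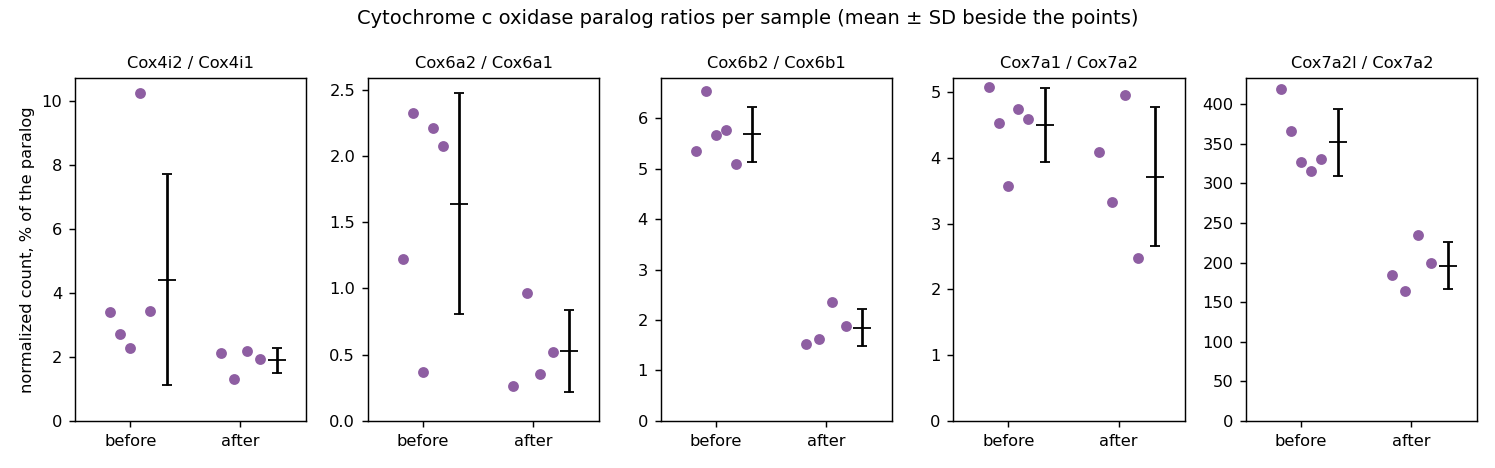
Normalized count of 5 complex IV isoforms as a percentage of their paralog in each sample (vertical axes start at 0), before culture (5 samples) and after culture (4 samples), with bars for the mean ± SD. Cox4i2, Cox6b2 and Cox7a2l lie lower relative to their paralogs in every cultured sample, the Cox4i2 point at 10.2% is the fourth sample before culture, and the Cox6a2 and Cox7a1 groups overlap.

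In complex V, 12 of 18 subunits fell, 0 rose and 6 did not pass (median -0.33). With the GC and length correction 8 were lower and 1 higher, and the 8 include Atp5if1 and Atp5mk, whose values it left unchanged. Of 5 F1 subunits 4 fell (median -0.44), all 3 genes of the c subunit fell, 4 of 5 membrane supernumerary subunits fell, and 0 of 4 peripheral stalk subunits passed the test (median -0.04). With the correction 1 of the c subunit genes stayed lower, and the stalk had 1 gene called higher, Atp5pf (0.37), and a median of 0.05. The difference between these roles was not tested. Of the 50-base windows of the stalk genes Atp5pd, Atp5pb and Atp5po, 47.9%, 38.7% and 34.0% are shared with other genes, and 16.3% for Atp5pf. Their values are therefore uncertain, and the part of shared sequence in the stalk values was not tested.

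Atp5f1a and Atp5f1b encode the alpha and beta subunits that form the catalytic ring. Atp5f1a was at 10454, 10490.0, 11009, 7748 and 10201 before and 7299.6, 8268, 6024 and 7719 after culture (log2 fold change -0.44 ± 0.11 SE, adjusted p = 0.00349 by limma). Atp5f1b was at 10709, 10968, 12016, 8599 and 10722 before and 8884, 9733, 7012 and 8858 after culture (log2 fold change -0.30 ± 0.11 SE, adjusted p = 0.0265 by limma; -0.07 and no call after the GC and length correction). The Atp5f1b call was lost without the second or the third sample before culture or the third after it (limma adjusted p 0.0557 to 0.0838). For both, only the fourth sample before culture lay inside the cultured range.

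The central stalk of the rotor showed 3 different values. Its gamma subunit gene Atp5f1c was at 2338, 2184, 2254, 2288 and 2237 before and 2023, 2583, 2123 and 2355 after culture, and its log2 fold change was 0.00 ± 0.08 SE (adjusted p = 0.995 by limma). The delta subunit gene Atp5f1d was at 5063, 4449, 4611, 2826 and 4573 before and 1789.6, 2098, 1298 and 1682 after culture. Each cultured sample was below each sample before culture, and Atp5f1d was 2.51-fold lower (log2 fold change -1.32 ± 0.16 SE, adjusted p = 8.68e-06 by limma), the largest fall in complex V; it is named Atp5d in the annotation and lies at chr10:80138632-80145818 on the plus strand. The epsilon subunit gene Atp5f1e fell by 0.67 on the log2 scale.

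The membrane ring is built from the c subunit, whose 3 genes encode the same mature protein. Atp5mc1 was at 1009, 954, 1033, 794 and 909 before and 767, 918, 601 and 803 after culture (log2 fold change -0.29 ± 0.12 SE, adjusted p = 0.0403 by limma). Atp5mc2 was at 1357, 1205, 1191, 785 and 1069 before and 668, 830.2, 622 and 766 after culture (log2 fold change -0.62 ± 0.14 SE, adjusted p = 0.00153 by limma). Atp5mc3, the most highly counted of the 3, was at 3229.7, 3122, 3205, 2129 and 3333 before and 1899, 2390.5, 1633 and 2121 after culture (log2 fold change -0.57 ± 0.14 SE, adjusted p = 0.00213 by limma). All 3 fell, although the Atp5mc1 call was lost without any 1 of 7 samples (limma adjusted p 0.0548 to 0.136), all but the fourth before and the second after culture, and 87.4% of the windows of Atp5mc2 are shared with pseudogene copies, so its value is uncertain. As a share of their sum, Atp5mc1 held 18.7 ± 1.64% before and 22.0 ± 0.82% after culture (exact permutation p = 0.0317, adjusted 0.0714), Atp5mc2 22.1 ± 1.58% and 20.7 ± 0.83% (exact permutation p = 0.127, adjusted 0.143), and Atp5mc3 59.2 ± 2.13% and 57.3 ± 0.34% (exact permutation p = 0.0794, adjusted 0.122; SD, n = 5 and n = 4).

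Among supernumerary membrane subunits Atp5me (-0.94), Atp5mk (-0.63), Atp5mg (-0.39) and Atp5mf (-0.35) fell and Atp5mj (-0.17) did not pass. Of the windows of Atp5mg 84.9% are shared with other genes, so its value is uncertain. Atp5me, whose promoter is printed above, was at 139, 125, 147, 42.7 and 113 before and 54.8, 56.1, 51.0 and 53.2 after culture; the fourth sample before culture was the lowest of all 9, and the call was lost with the correction (limma adjusted p = 0.0609). The peripheral stalk genes were at -0.21 for Atp5po, -0.05 for Atp5pd, -0.03 for Atp5pb and -0.01 for Atp5pf on the log2 scale, with 0.06 for Atp5po after the correction; without the second cultured sample Atp5po was called lower (limma adjusted p = 0.0313), and without the fourth before culture Atp5mj was (0.0237). Atp5if1, the inhibitor that blocks ATP hydrolysis by the complex, fell by 0.26 (limma adjusted p = 0.0317), a call lost without any 1 of 4 samples, the first and the third of each group (up to 0.104).

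Per kilobase of the longest principal transcript, the highest mean levels before culture were those of Cox8a (6007), Atp5f1b (5534), Atp5mc3 (4155), Atp5f1a (4039) and Cox6b1 (4014). After culture Atp5f1b led with 4500.0 per kilobase, above Atp5f1a (2966), Cox6b1 (2912), Cox8a (2819.9) and Atp5mc3 (2781). The last 4 of these were not tested against each other.

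Transcript length went along with the change among these genes. Of 37 tested members with a transcript of up to 800 bases 27 fell and 0 rose (median -0.58), of 23 above that and up to 1500 bases 12 fell and 0 rose (median -0.35), and of 17 over 1500 bases 7 fell and 4 rose (median -0.17). The shares of members that fell were 73.0%, 52.2% and 41.2%, against 28.4%, 34.7% and 35.5% of all tested genes in these classes. Of all tested genes 27.2%, 29.8% and 36.0% were called higher there. The length is that of the longest principal transcript. Ndufb2, Atp5mc1 and Uqcrq, which fell and count as over 1500 bases, also have principal transcripts of 455, 596 and 405 bases. With the GC and length correction the classes had 19 lower and 2 higher, 9 and 5, and 3 and 5, and their medians were -0.49, -0.22 and 0.03. Over all tested genes the medians in the same classes were 0.02, -0.05 and 0.01 without the correction and 0.07, 0.10 and 0.15 with it. Across 77 members the Spearman correlation of the log2 fold change with length was 0.421 and with GC content -0.446. Over 17888 tested genes these were 0.002 and -0.326. After the GC and length correction they were 0.354 and 0.066 among the members. These are descriptions across genes measured in the same 9 libraries, and genes are not independent replicates.

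**Figure D4:**
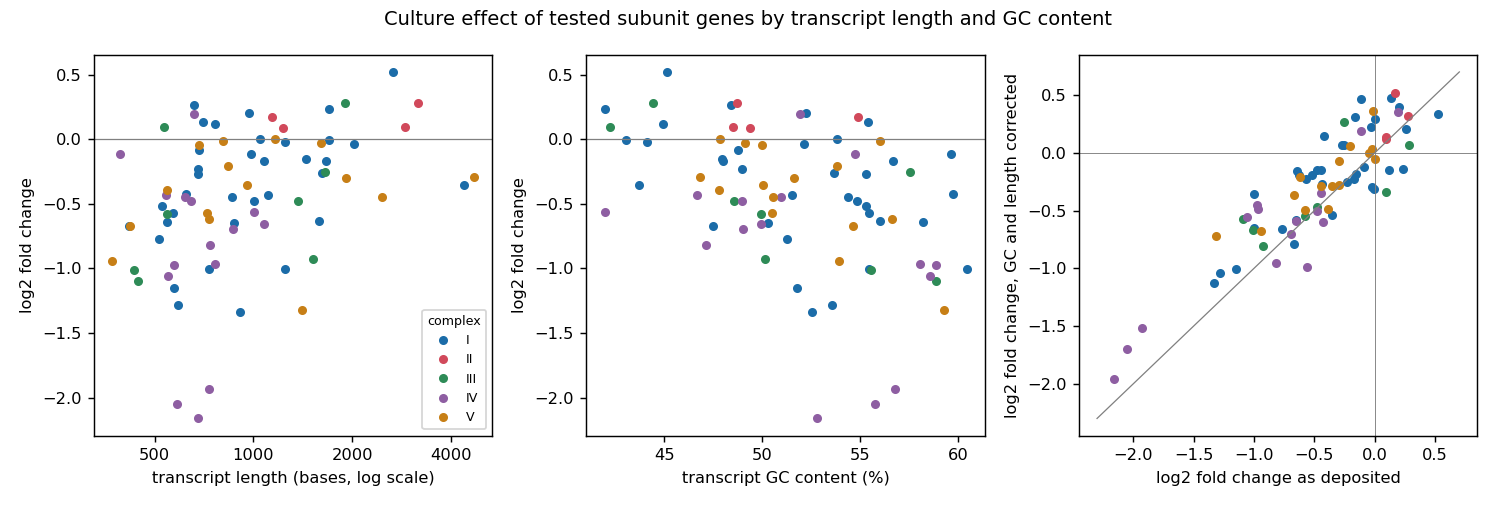
Log2 fold change (after against before culture) of tested members with a matched transcript against transcript length (bases, log axis) and GC content (%), and against the value after the GC and length correction, coloured by complex; the grey diagonal marks equal values. Members with short or GC-rich transcripts lie lower (Spearman 0.421 and -0.446, n = 77), and several members near 0 lie above the diagonal at the right.

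Members left untested were near or at 0. Cox7b2, Cox6c2, Ndufs6b, Uqcrh-ps1, Uqcrh-ps2, Atp5k-ps2, Atp5k-ps3, Atp5k-ps4 and Atp5l-ps1 were at 0 in all 9 samples, and Cox8c, a testis form, was above 0 in 1 cultured sample. Ndufa11b was at 13.3, 19.8, 5.61, 18.4 and 10.7 before and 2.65, 6.07, 5.46 and 3.04 after culture, and Ndufb11b and Atp5l-ps2 stayed under 10 in every sample. Ndufb4c was at 0 in all samples before culture and at 0, 7.58, 6.37 and 3.8 after. Of its windows 100% are shared with other genes, most of all Ndufb4, so its reads cannot be told apart from theirs. The fifth member called higher was the pseudogene copy Cox7c-ps1, at 1.9, 4.95, 11.2, 0.837 and 8.95 before and 23.8, 21.2, 28.2 and 25.8 after culture (log2 fold change 2.30 ± 0.52 SE, adjusted p = 0.00143 by limma). Its groups did not overlap, but 55.7% of its windows are shared with Cox7c, which fell, and reads of the copies cannot be told apart there.

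Pathway lists beside the subunits were counted in the same fit, in which 68.8% of all tested genes were called in either direction. The subunits that mitochondria encode themselves were counted beside the nuclear ones: of 13, 10 were tested, 9 rose and 0 fell (median 0.67). mt-Co3 was at 5.71, 12.4, 7.85, 10.9 and 5.37 before and 35.3, 47.0, 36.4 and 62.3 after culture (2.32 ± 0.32 SE, corrected 1.69). mt-Nd5 rose from a mean of 35991 ± 2870.4 to 61149 ± 9163 (SD, n = 5 and n = 4; log2 fold change 0.76, corrected 0.10) and mt-Nd4l from 19.7 ± 11.2 to 72.9 ± 14.1 (1.95, corrected 1.45). With the GC and length correction the median of this list was -0.04 and 4 of its genes were called, so its direction depended on that setting. mt-Co2, mt-Atp8 and mt-Atp6 had means under 2 normalized counts in both groups while mt-Co1 was at 153523 before culture, so these rows do not give the level of every mitochondrial transcript.

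Assembly factors, which build the complexes and are not part of them, had these counts: 17 of 45 tested rose, 6 fell and 22 did not pass (median 0.16). Coa5 (complex IV), Tmem70 (complex V) and Acad9 (complex I) rose with log2 fold changes of 1.099, 1.14 and 0.92, and no samples overlapped. Coa5 was at 2739, 2929, 2973, 3064 and 2923 before and 5894, 6419, 5866 and 6936 after culture. Ttc19 (complex III) and Ndufaf8 (complex I) fell, by 0.34 and 0.62. The 5 genes kept their direction under the GC and length correction, under which Ndufaf8 lost its call (-0.28) and the list had 22 higher and 4 lower, and the factor Pet117 was at 0 in all samples.

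Among 17 regulators of respiratory genes and mitochondrial DNA 6 rose, 3 fell and 8 did not pass (median 0.09); with the GC and length correction 8 were higher and 0 lower. Lrpprc, which stabilises mitochondrial mRNA, rose by 0.67, and Ppargc1a, the coactivator of mitochondrial biogenesis, by 1.58 from a low mean of 14.2 ± 2.24 to 45.0 ± 12.0 (SD, n = 5 and n = 4). Its relative Pprc1 was at -0.54 and Myc at -0.56, both called lower; the corrected values, 0.03 and -0.03, did not pass. Gabpa, which encodes the ETS factor named above, rose by 0.46 (corrected 0.17, no call). It was singled out after its value was seen. The genes of the other factors whose motifs were searched did not pass, Nrf1 at -0.16 and Yy1 at 0.02. With the correction Nrf1 (0.11) did not pass either and Yy1 (0.34) was called higher.

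Of 6 carriers and subunits outside the rule 3 fell, 1 rose and 2 did not pass (median -0.48). Higd2a and Higd1a, which associate with complex IV and supercomplexes, fell (-0.93 and -0.78), and Ndufab1, the acyl carrier protein of complex I, rose from 278 ± 56.0 to 462 ± 53.7 (SD, n = 5 and n = 4; log2 fold change 0.75 ± 0.15 SE, adjusted p = 0.000508 by limma). Cytochrome c (Cycs) and cytochrome c1 (Cyc1) did not pass, and Cyc1 was called higher with the correction (0.23). Of 16 tricarboxylic acid cycle genes 6 fell and 4 rose (median -0.12): fumarate hydratase Fh1 (-0.77) and Pdhb (-0.59) fell, and Dld (0.54) and Sucla2 (0.43) rose. With the GC and length correction Fh1 (-0.80) and Pdhb (-0.65) stayed lower, while Dld (0.09) and Sucla2 (0.14) did not pass and the list's median was 0.08. Of 13 genes of coenzyme Q synthesis 4 fell and 2 rose (median -0.14); with the correction 2 were lower and 6 higher (median 0.13). Coq10b, a coenzyme Q binding protein, was 3.70-fold lower (log2 fold change -1.89 ± 0.07 SE, adjusted p = 5.62e-11 by limma), Coq8a fell (-0.72, corrected -0.38), and Coq3 (0.95) and Pdss1 (0.66) rose.

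Of 16 genes of carriers, import and uncoupling 7 rose, 5 fell and 4 did not pass (median 0.01). Ucp2, an inner-membrane carrier named for uncoupling and abundant in immune cells, was at 52879, 47848, 50024, 43768 and 55153 before and 22700.1, 26296, 18412 and 24169.5 after culture and fell (log2 fold change -1.13 ± 0.11 SE, adjusted p = 9.64e-07 by limma; corrected -0.68). The phosphate carrier Slc25a3, which supplies ATP synthase, fell by 0.55, and the outer-membrane channel Vdac3 rose by 0.73 (corrected 0.47). No samples of the groups overlapped for these 3 genes.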

How the data were processed

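RNA of 5 samples before and 4 samples after culture was analysed from the table that the authors deposited, which holds a normalized count (a signal never below 0) for each gene and sample. Per the submitters' processing notes DESeq2 and the GRCm38 genome were used; the aligner, the counter, the annotation, strandedness and filters are not given in the sources used here. All values (100%) were whole multiples of the value of 1 read (tolerance 1e-06), and the recovered reads served the edgeR 4.0.16 and DESeq2 1.42.0 alternatives. Of 49317 rows, 3782 without a symbol (3.87 to 10.9% of reads) were left out of tests and depths, and 60 symbols sit on more than 1 row.

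Members were chosen by symbol. The members and lists were chosen with earlier results of these data known. Genes with a mean of at least 10 were tested with limma 3.58.1 (R 4.3.3) on log2(normalized count + 1), with group as the only term, a mean-variance trend and Benjamini-Hochberg adjustment over 18202 genes (threshold 0.05); the procedure was tested on simulated data. A fold change on this scale understates the change of low genes. Ratios of 9 paralogs were tested by exact permutation (126 splits, SciPy 1.17.1). Transcript length, GC content and windows of 50 bases shared with other genes came from the GENCODE annotation of GRCm38, which matched 91 of 96 members. The longest principal transcript of a gene was used, or the longest of all where none is marked as principal. Values per sample were given for the 3 highest and 3 lowest members called with a mean of at least 100, the core subunits, the paralogs and members called against their complex; of other lists, the 3 genes with the smallest adjusted p and up to 2 called against the list's median were named. Reads carry no molecular identifiers, so the spread between samples is the error used. Alternatives covered pseudocount, filter, scaling, tool, replicate block, GC and length correction, shared sequence and each sample left out; 1 was added after seeing the data, which left out the lowest library of each group together. The values of 1 complex I member are not reported here; it stays in the counts, sums and medians.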

Additional observations from a re-analysis of the deposited data

Results flagged for a closer look

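In 18 of 84 groups of 4 or 5 samples tested, counting complex sums and members given with a value in every sample, the fourth sample before culture lay so far below the other 4 that the gap to its nearest neighbour took up most of the range of the group. Chance alone flags about 1 in 20 such groups, and these groups share the same sample. As a share of the range, the gap was 0.770 for the summed subunits of complex I, 0.861 for complex II, 0.870 for complex IV, 0.760 for complex V and 0.802 for all complexes together. Among single genes it was 0.897 for Ndufb11, 0.779 for Ndufa6 and 0.771 for Ndufs8 in complex I, and 0.866 for Sdha and 0.739 for Sdhb in complex II. In complex IV it was 0.852 for Cox8a, 0.843 for Cox6b1, 0.762 for Cox5b, 0.750 for Cox6a1 and 0.719 for Cox5a. In complex V it was 0.825 for Atp5mc3, 0.752 for Atp5f1a and 0.726 for Atp5f1d. The sum of complex III was not among them, although the fourth sample was the lowest there too (8578, against 10052 to 10655 in the rest of its group). Ndufs1 and Uqcrc2 were not among them either, and for these genes the fourth sample was the highest before culture.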

How the results depend on the processing

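Under every alternative run the median of the members stayed negative (-0.51 to -0.25). The count of lower members ran from 40 to 53 when 1 sample was left out and that of higher members from 3 to 7. Higher members numbered 3 with a minimum mean of 50, 3 with the replicate block by title number, 3 without members sharing at least 20% of windows, and 13 with the GC and length correction, where 33 were lower. The replicate block by title number together with that correction gave 13 higher and 25 lower. The correction and the block with the correction reversed, among others, Ndufs7 (0.47 and 0.47), Uqcrc1 (0.27 and 0.29), Ndufv1 (0.31 and 0.35, called higher by the correction alone) and Ndufv2 (-0.14 and -0.12). They called 4 and 2 mitochondrially encoded genes, against 9. The median of all tested genes also moved, from 0.01 to 0.13 and 0.14. The parts of this shift, GC content and length in these changes were not tested. edgeR called 49 lower and 5 higher, DESeq2 48 and 5.

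The labels do not state if numbers in the titles pair the samples. The correlations of deviations cannot decide it, since those by title number were weak and differed in sign (-0.213 to 0.081). Samples 1 and 2 before culture correlated best with the cultured sample of their title number (0.081 and 0.08). Samples 3 and 4 did not (-0.213 and -0.04 with the same title number). By the number in the library names the correlations were 0.045 to 0.349, with sample 5 before culture correlating better with another number (0.066). The replicate block gave 40 lower by title number, and 50 lower and 6 higher by library name.

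With a pseudocount of 8 the log2 ratios changed by -0.66 for Cox4i2, -1.40 for Cox6b2 and -0.85 for Cox7a2l and missed the threshold (exact permutation p, adjusted 0.0714 to 0.163). With 1 sample left out they changed by -1.14 to -0.60, -1.72 to -1.52 and -0.94 to -0.77, and no adjusted exact p passed (0.0643 to 0.107), since fewer samples allow no smaller p. Without the 2 libraries with the lowest member levels, chosen after seeing the data, 51 members were lower and 7 higher. Depth limits the isoform values, which rest on a few reads per sample for Cox6a2 after culture.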
